A study of Mus musculus with 18 samples.

Results

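Memory CD8+ T cells differentiated in culture were compared with naive CD8+ T cells, both labelled as Hspa9 conditional knockout (cKO). The comparison uses the 3 memory and the 3 naive libraries with that label, 6 of the 18 libraries of the series. Membership was taken from the library titles alone. Hspa9 encodes GRP75, also called mortalin, the Hsp70 chaperone of the mitochondrial matrix that pulls imported proteins inside and helps them fold. The age given is 8 weeks for both groups. Naive cells came from mice (tissue label: lymph nodes and spleen), and memory cells had been differentiated in vitro, so culture and subset cannot be told apart. Neither group was given a treatment according to the labels, and all 6 libraries share the cKO label, so genotype does not separate the 2 groups. The Cre driver, the deleted part of the gene, the culture conditions and whether the replicates were separate mice are not given in the sources used here. P-values therefore measure the spread between these libraries, which may be technical.

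Naive CD8+ T cells recirculate through lymphoid organs in a quiescent state, held there by factors such as TCF1, LEF1 and KLF2 and by signals through the IL-7 receptor. Memory cells keep part of that program and add surface CD44, the IL-2 and IL-15 receptor chain CD122 and chromatin that lets cytokine and killing genes respond quickly. Mitochondrial chaperones, the ATF4 arm of the stress response and interferon signalling are linked in cells, because damaged mitochondria can activate both responses.

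Recovered reads ranged from 15473340 to 18049774 per library and were analysed as CPM, counts scaled to sequencing depth, with the 6 libraries normalised together. A gene is said to rise or fall when edgeR's quasi-likelihood test gave a Benjamini-Hochberg adjusted p under 0.05. Of 14083 autosomal and mitochondrial genes tested, 5495 were called (39.0%), 3010 higher in memory (21.4%) and 2485 lower (17.6%). At least 2-fold, 1427 were higher (10.1%) and 458 lower (3.25%). Scaling to library totals in place of TMM lowered all log2 fold changes by 0.10 in the median and turned the split into 2448 higher and 3457 lower. The Y-linked genes Ddx3y, Eif2s3y, Kdm5d and Uty had reads in every naive library labelled cKO (Ddx3y 3551, 2978 and 2761 reads) and are not listed for memory cells, while Xist had reads in all 6. Naive and memory libraries therefore differ in sex makeup, which cannot be told apart from the subset for any gene below. Between naive replicates, replicate 3 stood somewhat apart, and between memory replicates replicate 1 did.

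Hspa9 itself was measured first. It stood at 416, 434 and 396 CPM in the naive libraries and at 398, 382 and 369 CPM in the memory libraries, with overlapping ranges. The log2 fold change of -0.12 ± 0.08 (SE) had an adjusted p of 0.28 in edgeR, and scaling to library totals gave a called fall of 0.21. Against wild type (WT), the transcript was not lower in the libraries labelled cKO. On the scale of 12 libraries normalised together, naive libraries labelled cKO held 401 ± 19.4 CPM (SD, n = 3) and naive WT libraries 248 ± 11.5 CPM. Memory libraries labelled cKO held 376 ± 13.2 CPM and memory WT libraries 263 ± 7.83 CPM. The groups did not overlap in either subset, and a two-sided exact permutation of the labels gave p = 0.1 for each subset, which is the lowest value 3 against 3 can reach. Counts over the whole gene do not show which exons were transcribed, so this transcript level does not check the deletion.

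Markers of CD8 T cells were abundant in both groups. Summed over 12 markers, their level lay at 6584 to 6931 CPM in naive and 6088 to 7119 CPM in memory libraries. Cd8a, the coreceptor alpha chain, stood at 1399, 1381 and 1380.2 CPM in naive and 1269, 1108 and 1137 CPM in memory libraries. Most marker lists of other cell types stood higher in memory libraries, in sums below that of the CD8 markers. Summed B cell markers (10 of 10 listed genes) lay at 355 to 397 CPM in naive and 1522 to 1862 CPM in memory libraries. Over these single markers, the median log2 fold change was 4.69, with a range of 0.70 to 5.94. NK cell markers (5 of 6) lay at 193 to 224 and 484 to 638 CPM, and gamma-delta T cell markers at 50.4 to 59.3 and 125 to 166 CPM. The widest gaps were in myeloid lists. Macrophage and dendritic cell markers (10 of 11) lay at 8.39 to 9.33 CPM in naive and 347 to 403 CPM in memory libraries, and neutrophil markers (6 of 8) at 0.439 to 1.11 and 203 to 286 CPM. Erythroid markers lay at 8.52 to 10.7 and 94.7 to 114 CPM, while markers of stroma and endothelium, at 123 to 131 and 114 to 125 CPM, overlapped. The neutrophil genes Mpo and Ly6g and the gene C1qa of macrophages were listed for memory cells only and are not in these sums. The part of such cells in the rises described below was not tested. In these bulk samples, fewer cells of a type and less RNA per cell cannot be told apart.

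**Figure D1:**
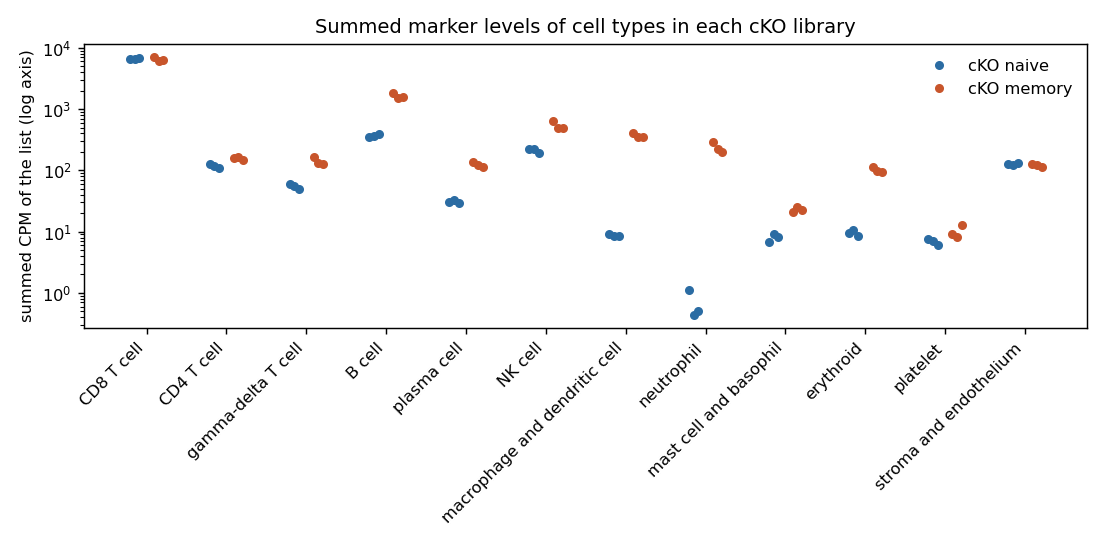
Summed CPM (log axis) of 12 cell type marker lists in each of the 6 libraries, with 1 point per library and naive and memory libraries in 2 colours. CD8 T cell markers lie between 6088 and 7119 CPM in both groups, while neutrophil markers lie at or below 1.11 CPM in naive and at or above 203 CPM in memory libraries.

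Transcription factors of the naive state moved in both directions, while factors of the effector fate that were called had all risen. Of 20 naive and stem-like factors tested, 7 rose (35%), 5 fell (25%) and 8 were not called. Of all genes, 21.4% rose and 17.6% fell. The median log2 fold change was -0.05 against 0.00 over all genes tested. Without naive replicate 2 only 4 rose, and without naive replicate 1 or 2 only 3 fell. Tcf7, which encodes TCF1 and marks stem-like T cells, had 1313, 1279 and 1419 CPM in naive and 1358, 1261 and 1294 CPM in memory libraries. Its ranges overlapped, and the log2 fold change was -0.04 ± 0.09 (SE, edgeR adjusted p = 0.78). Lef1, its partner factor, fell from 474, 479.9 and 542 to 289, 311 and 328 CPM with no overlap (log2 fold change -0.69 ± 0.09, edgeR adjusted p = 3.1e-05). Bach2, a repressor of effector genes, and Bcl11b, a T cell identity factor, also fell, by 0.51 and 0.63 on the log2 scale. Eomes, the T-box factor of central memory and innate-like CD8 cells, rose from 35.0, 32.5 and 32.3 to 145, 129 and 138 CPM. Klf2, which drives lymph node homing receptors, had 919.9, 901 and 1186 CPM in naive and 1311, 1173 and 1718 CPM in memory libraries and rose with overlapping ranges.

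Of 19 effector fate factors tested (of 20 listed), 13 rose and none fell in the edgeR test, 9 of them at least 2-fold. Tbx21, which encodes T-bet, was at 9.05, 11.3 and 13.8 CPM in naive and 83.8, 84.6 and 93.5 CPM in memory libraries. Every memory library exceeded every naive library, and the log2 fold change was 2.95 ± 0.13 (SE, edgeR adjusted p = 5.1e-10). Bhlhe40, a factor of resident memory and cytokine output, went from 32.9, 32.0 and 37.3 to 399.7, 385 and 398 CPM. Nfil3 and Prdm1, regulators of activated lymphocytes, had log2 fold changes of 2.54 and 2.43. Zeb2 and Irf8 had log2 fold changes of 4.46 and 3.90, and both are also strong in myeloid cells, whose summed markers rose by a factor of 42.2. Id2 rose by 0.40 on the log2 scale, and Runx3, at 148, 142 and 189 CPM in naive and 169, 179 and 195 CPM in memory libraries, was not called.

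Of 26 receptors tested (of 28 listed) that guide T cells between blood, lymph nodes and tissue, 16 rose, against 21.4% of all genes, and 5 fell, a share near the 17.6% of all genes. Ccr7, the chemokine receptor for lymph nodes, rose from 563, 582 and 654 to 1087, 912 and 978 CPM. S1pr1, the receptor for exit from lymph nodes, fell from 492, 489 and 450.0 to 369, 374 and 347 CPM. Cd44, the hyaluronan receptor used to define antigen-experienced cells, was at 21.7, 22.9 and 19.2 CPM in naive and 189.9, 200.4 and 191 CPM in memory libraries, 9.12 times as high in the mean (log2 fold change 3.19 ± 0.09, edgeR adjusted p = 7.3e-12). Ccr2, a receptor for inflammatory chemokines that is also strong in monocytes, had 1.89, 1.95 and 1.03 CPM in naive and 67.9, 70.3 and 64.7 CPM in memory libraries. Among the falls were Itgae, the CD103 integrin chain, from 413 ± 10.2 to 172 ± 4.28 CPM (SD, n = 3), and the receptors Ccr4 and Ccr9, by 1.71 and 1.17 on the log2 scale.

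**Figure D2:**
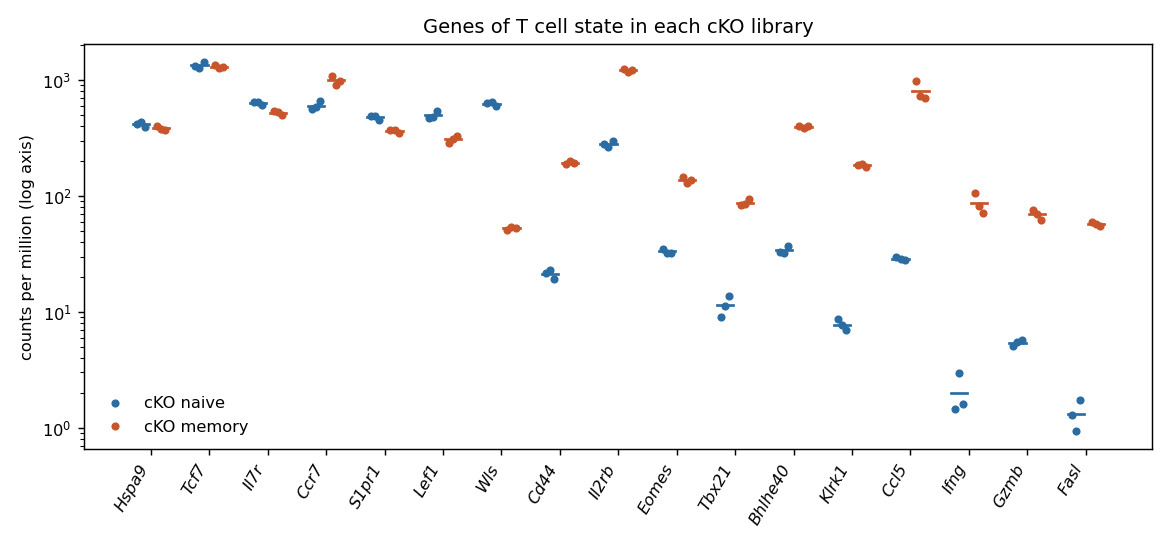
CPM (log axis) of 17 genes of T cell state in the 6 libraries, with points for libraries and short lines for group means. Hspa9 and Tcf7 lie at similar heights in naive and memory libraries, whereas Cd44, Eomes, Tbx21, Ccl5, Ifng, Gzmb and Fasl lie higher in all 3 memory libraries and Wls lies lower in all 3.

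The chains for IL-15 and IL-18 signals rose together with most other cytokine receptors. Of 23 interleukin and cytokine receptors tested (of 24 listed), 14 rose, 12 at least 2-fold, and 5 fell; without naive replicate 1 or 2, or without memory replicate 3, only 3 fell. Il2rb, the CD122 chain shared by the IL-2 and IL-15 receptors, had 279.6, 266 and 299 CPM in naive and 1235, 1177 and 1226 CPM in memory libraries. The groups were far apart, with a log2 fold change of 2.11 ± 0.09 (SE, edgeR adjusted p = 3e-10). Il18r1 and Il18rap, the 2 chains for IL-18, rose by 2.66 and 3.67 on the log2 scale. Il12rb2, the signalling chain for IL-12, rose by 1.81. Il7r, the survival receptor of naive and memory cells, fell slightly, from 642, 642 and 611 to 538, 529 and 499.7 CPM, and Il6ra fell by 0.83 on the log2 scale. The rise of Csf2rb (5.60) lies in a chain that myeloid cells also use.

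Genes of secreted effectors rose in memory cells, several from near zero. Of 14 cytokines and chemokines tested (of 23 listed), 9 rose, each at least 2-fold, and none fell in the edgeR test. Ccl5, a chemokine stored by memory CD8 cells, lies at chr11:83416604-83421344 (GRCm39, as deposited) and had 29.8, 28.4 and 27.8 CPM in naive and 978, 725 and 695 CPM in memory libraries. Memory replicate 1 was the highest, and all 3 stood far above the naive range (log2 fold change 4.80 ± 0.14, edgeR adjusted p = 7.2e-12). Ifng, the defining type 1 cytokine, had 1.44, 2.95 and 1.61 CPM in naive and 106, 82.0 and 71.1 CPM in memory libraries. Xcl1, which draws cross-presenting dendritic cells, had 3.94, 4.39 and 5.17 CPM in naive and 114, 93.4 and 84.3 CPM in memory libraries. Tnf rose by 1.72 on the log2 scale, and Ltb, Lta, Il16, Tgfb1 and Lif were not called.

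The killing machinery rose as well. Of 15 cytotoxic granule and death ligand genes tested (of 20 listed), 13 rose, 8 at least 2-fold, and none fell. Gzmb, the main apoptosis-inducing granzyme, had 5.05, 5.46 and 5.75 CPM in naive and 76.4, 69.9 and 61.5 CPM in memory libraries (log2 fold change 3.68 ± 0.12, edgeR adjusted p = 2.7e-11). Fasl, the ligand that triggers death through Fas, had 1.28, 0.942 and 1.74 CPM in naive and 59.6, 56.7 and 54.6 CPM in memory libraries. Neither range came close to the other. Prf1, the pore former, was already expressed in naive cells and changed less, from 28.0 ± 1.56 to 54.5 ± 5.49 CPM (SD, n = 3). Gzmk, Gzmm and Gzma rose by 5.05, 3.80 and 3.65 on the log2 scale, and Tnfsf10, which encodes TRAIL, was not called.

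All 17 NK-type receptor genes rose at least 2-fold, against 10.1% of all genes tested. These lectin-like receptors and their adaptors sense stress ligands or MHC class I on target cells, and many are found on memory CD8 cells as well as on NK cells. Klrk1, which encodes the activating receptor NKG2D and lies at chr6:129587286-129600827, had 8.60, 7.66 and 6.91 CPM in naive and 184, 187 and 178 CPM in memory libraries. The memory values were tightly grouped, 23.7 times the naive mean (log2 fold change 4.56 ± 0.10, edgeR adjusted p = 1.6e-12). Klrc1, the inhibitory NKG2A chain at chr6:129642978-129655936, had 2.55, 2.39 and 1.29 CPM in naive and 147, 156 and 151 CPM in memory libraries. Klre1 and Klrc2 rose by 6.48 and 6.28 on the log2 scale, and Klrd1, the CD94 partner chain, rose from 111 ± 13.2 to 228 ± 20.7 CPM (SD, n = 3). The Ly49 genes Klra1, Klra3, Klra5, Klra6, Klra7, Klra9 and Klra10 rose by 3.40 (Klra3) to 5.95 (Klra10), but are near-identical copies between which the counting could split reads. Klrg1, the marker of terminal effectors, stayed scarce, at 0.0555, 0.314 and 0.258 CPM in naive and 2.95, 2.98 and 1.96 CPM in memory libraries. The NK cell markers Klre1 and Klrb1c are in this list, and the summed NK markers rose by a factor of 2.55. Over the 5 NK markers tested, the median log2 fold change was 3.25, with a range of 0.98 to 6.48. The part of these markers in the rise of the list was not tested.

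Coinhibitory receptors rose more often than costimulatory ones, without a test of that difference. Of 17 inhibitory receptors tested, 11 rose, 10 at least 2-fold, and 1 fell, Vsir, which lost its call without any one of the libraries other than memory replicate 1. Tigit, Lag3 and Cd160, receptors that can dampen T cell activation, rose by 2.63, 2.50 and 2.04 on the log2 scale. Pdcd1, which encodes PD-1, had 3.16, 5.46 and 3.16 CPM in naive and 4.29, 2.78 and 4.43 CPM in memory libraries and was not called. Lilrb4a and Lilrb4b rose by 4.59 and 5.46, but they are near-identical copies that myeloid cells also express. Of 19 costimulatory receptors tested, 8 rose and 1 fell, or 2 without memory replicate 3. Cd28, the main costimulatory receptor, went from 210.4 ± 11.7 to 579 ± 54.5 CPM (SD, n = 3), and Cd226 fell. Of 28 genes of T cell receptor signalling, 7 rose (25%) and 4 fell (14.3%), with a median of 0.03. These shares were near those of all genes tested (21.4% and 17.6%).

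Surface antigens and cytoskeletal S100 genes used to tell memory cells apart rose in 20 of 23 tested genes (of 24 listed). None fell in the edgeR test, and 1 did without memory replicate 1. Ly6c2, a Ly6C antigen found on many memory CD8 cells, had 137, 132 and 121 CPM in naive and 638, 521 and 484 CPM in memory libraries. Anxa2, a membrane-binding annexin, went from 35.3, 33.9 and 37.1 to 163, 127 and 134 CPM. Both groups of values stood apart, with log2 fold changes of 2.08 ± 0.11 and 2.00 ± 0.10 (SE). S100a8 and S100a9 are in the list but are also neutrophil markers, and they rose with the other neutrophil genes.

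Immediate early genes, the transcription factors and feedback regulators induced within minutes of receptor or stress signals, were higher in memory cells. Of 24 tested (of 25 listed), 20 rose, 17 at least 2-fold. Both members that fell, Egr2 and Egr3, lost their calls without naive replicate 1 or 3 or memory replicate 1, and 1 of them was left without naive replicate 2 or memory replicate 3. Fosb had 75.6, 76.3 and 91.5 CPM in naive and 740.2, 854 and 933 CPM in memory libraries (log2 fold change 3.38 ± 0.12, edgeR adjusted p = 3.8e-11). Atf3, a stress-induced repressor, had 0.777, 0.753 and 0.969 CPM in naive and 52.8, 46.6 and 53.7 CPM in memory libraries. For both genes, every memory library was above every naive library. Junb, Dusp1 and Zfp36 rose by 1.47, 1.80 and 2.19 on the log2 scale from already high levels. The orphan receptors Nr4a1, Nr4a2 and Nr4a3, readouts of recent T cell receptor signals, rose by 1.83, 2.71 and 2.35, and Tox, a factor of exhausted cells, fell by 0.67.

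**Figure D3:**
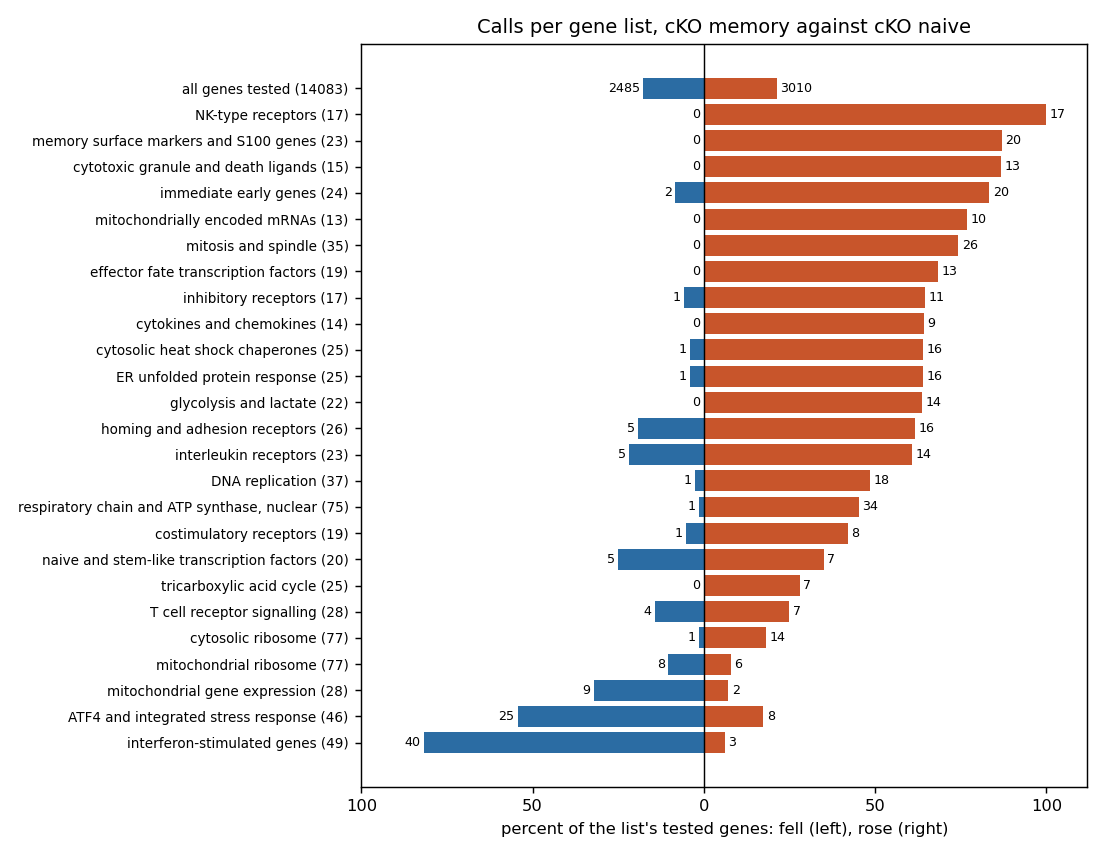
Percent of the tested genes of each list that rose (right) or fell (left), with the number of genes at the bar ends and the number tested in parentheses. All 17 NK-type receptors rose and 40 of 49 interferon-stimulated genes fell, against 3010 and 2485 of all 14083 genes tested.

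Interferon-stimulated genes moved the other way and were lower in memory cells. These genes encode antiviral effectors and sensors, and are switched on when interferon signalling brings its transcription factor complex to an interferon-stimulated response element (ISRE) in their promoters. The promoters below, from RefSeq on GRCm38.p6 (the deposited coordinates are of GRCm39), belong to 3 genes that fell and show where the element lies. Capitals mark matches to the ISRE core (GAAA, any 2 bases, GAAA) on either strand, each sequence runs 5′ to 3′ on the gene's strand from 250 bases before to 50 bases after its start, and no match overlaps one to the other motif searched, an ATF4 element given further on. Ifit1 is at chr19:34640639-34640938 (plus strand), Ifit3 at chr19:34583279-34583578 (plus strand) and Rsad2 at chr12:26456403-26456702 (minus strand).
Ifit1: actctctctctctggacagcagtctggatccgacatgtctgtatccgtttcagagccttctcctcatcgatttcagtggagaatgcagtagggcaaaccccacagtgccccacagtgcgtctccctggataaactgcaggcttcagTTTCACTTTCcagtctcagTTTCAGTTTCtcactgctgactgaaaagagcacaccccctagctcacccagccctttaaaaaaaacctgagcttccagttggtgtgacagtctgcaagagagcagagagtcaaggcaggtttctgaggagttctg
Ifit3: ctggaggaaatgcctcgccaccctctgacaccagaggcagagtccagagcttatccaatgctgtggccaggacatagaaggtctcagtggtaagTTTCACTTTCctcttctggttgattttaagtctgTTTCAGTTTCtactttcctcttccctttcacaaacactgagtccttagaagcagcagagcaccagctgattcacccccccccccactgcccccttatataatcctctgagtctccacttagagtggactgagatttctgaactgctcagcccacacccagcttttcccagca
Rsad2: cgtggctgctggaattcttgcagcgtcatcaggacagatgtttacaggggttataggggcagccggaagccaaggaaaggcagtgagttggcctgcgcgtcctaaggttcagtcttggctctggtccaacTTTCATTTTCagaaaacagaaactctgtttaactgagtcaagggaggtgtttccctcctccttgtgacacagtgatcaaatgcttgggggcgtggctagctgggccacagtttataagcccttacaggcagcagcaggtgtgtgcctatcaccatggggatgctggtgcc
Promoters were found in RefSeq for 28 of the 40 genes that fell, and 19 of their 34 promoters (55.9%) held a match, against 1131 of all 32851 promoters of that length (3.44%). Ifi44 had no match in its window. The genes were chosen for this list as interferon targets, so the match describes the list and not its fall.

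Of 49 interferon-stimulated genes tested (of 51 listed), 40 fell, 17 at least 2-fold, and 3 rose, against 17.6% of all genes that fell. The median log2 fold change was -0.69. Ifit1, which binds viral RNA lacking a self cap, had 80.7, 81.3 and 75.1 CPM in naive and 14.9, 9.71 and 11.8 CPM in memory libraries. Every memory library was below every naive library, by a log2 fold change of -2.70 ± 0.13 (SE, edgeR adjusted p = 1.2e-09). Rsad2, which encodes the antiviral enzyme viperin, had 54.3, 60.9 and 51.2 CPM in naive and 12.9, 12.7 and 12.9 CPM in memory libraries. Oas2, a sensor of double-stranded RNA, had 133, 135 and 157 CPM in naive and 31.4, 30.8 and 31.0 CPM in memory libraries. Memory replicates were nearly equal for both genes. Ifi44 fell most in this list, from 38.6, 39.0 and 31.7 to 4.76, 5.43 and 3.10 CPM. Irf7, the factor that amplifies type I interferon, fell from 191 ± 8.98 to 90.5 ± 8.11 CPM, and Isg15, the ubiquitin-like modifier, from 44.6 ± 6.94 to 16.3 ± 4.09 CPM. Ifit3 and Ifit3b, with log2 fold changes of -2.17 and -2.88, are near-identical copies. Gbp2 and Gbp3, guanylate-binding proteins induced mainly by interferon-gamma, rose, Gbp2 by 0.33 on the log2 scale and Gbp3 from 38.8, 33.8 and 35.3 to 77.9, 69.0 and 70.6 CPM. Mx1, Mx2 and Usp18 were among the falls, at -1.39, -2.16 and -0.54 on the log2 scale.

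ATF4 is the factor that raises amino acid uptake, synthesis and tRNA charging under mitochondrial or nutrient stress. Genes of the ATF4 response were mostly lower in memory cells. Of 46 tested (of 53 listed), 25 fell (54.3%) and 8 rose (17.4%), against 17.6% and 21.4% of all genes. The median log2 fold change was -0.43. Trib3, a pseudokinase that feeds back on ATF4, had 78.7, 79.4 and 93.2 CPM in naive and 43.9, 39.0 and 47.8 CPM in memory libraries (log2 fold change -0.94 ± 0.10, edgeR adjusted p = 5.7e-06). Atf5, an activator of mitochondrial stress genes, had 88.3, 82.6 and 95.8 CPM in naive and 48.4, 42.1 and 54.9 CPM in memory libraries. The groups did not overlap for either gene. The aminoacyl-tRNA synthetase genes Iars, Cars and Aars fell by 0.75, 0.70 and 0.66 on the log2 scale, and the amino acid transporters Slc1a4 and Slc7a5 by 0.98 and 0.63. Ddit4, an inhibitor of mTORC1, was the member that fell more than 2-fold, from 132 ± 21.4 to 52.3 ± 4.50 CPM (SD, n = 3). Atf4 itself rose, from 287, 283 and 307 to 463, 406 and 435 CPM, and so did Ppp1r15a, the phosphatase subunit that ends the response, by 1.06. Atf3 and Stc2 also rose, and Ddit3, which encodes CHOP, had 78.8, 81.6 and 81.8 CPM in naive and 86.3, 78.4 and 77.7 CPM in memory libraries and was not called. Asns, the asparagine synthetase, fell from 11.1, 13.4 and 13.8 to 9.32, 8.80 and 6.91 CPM.

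The promoters of a pair of ATF4 targets that fell show the core of the C/EBP-ATF element, TGATGNAA on either strand, in capitals. Trib3 is at chr2:152344011-152344310 (minus strand) and Asns at chr6:7693160-7693459 (minus strand), from RefSeq on GRCm38.p6 with the same window.
Trib3: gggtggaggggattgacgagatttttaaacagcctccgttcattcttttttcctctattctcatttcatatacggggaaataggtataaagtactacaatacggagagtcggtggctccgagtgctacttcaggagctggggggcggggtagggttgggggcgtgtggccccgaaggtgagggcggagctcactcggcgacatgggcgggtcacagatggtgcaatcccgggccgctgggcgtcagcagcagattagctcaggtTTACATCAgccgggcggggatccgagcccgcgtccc
Asns: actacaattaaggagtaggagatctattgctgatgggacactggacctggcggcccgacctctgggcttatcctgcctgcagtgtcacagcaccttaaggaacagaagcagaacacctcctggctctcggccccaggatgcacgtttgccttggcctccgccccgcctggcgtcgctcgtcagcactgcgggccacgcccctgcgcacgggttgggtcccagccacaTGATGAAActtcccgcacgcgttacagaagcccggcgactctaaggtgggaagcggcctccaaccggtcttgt
Of 27 promoters found for 22 members that fell, 7 (25.9%) held this core, against 1304 of all promoters (3.97%). Over all members of the list, it was 16 of 53 promoters (30.2%). Atf5 had no match in its windows. The genes were chosen for this list as members of the ATF4 response, so the match describes the list and not its fall. None of these counts bears on whether ATF4 bound.

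Transcripts made by the mitochondrial genome were higher in memory cells, while the nuclear genes that express that genome were not. Reads of the mitochondrial chromosome made up 0.874%, 0.912% and 0.760% of the reads of the joined autosomal and mitochondrial genes in naive and 1.91%, 1.54% and 1.37% in memory libraries. That is 0.849 ± 0.0789% against 1.61 ± 0.277% (SD, n = 3), a ratio of 1.89 (exact two-sided permutation p = 0.1, the smallest possible). Of 13 mitochondrially encoded mRNAs, 10 rose and none fell in the edgeR test, 9 at least 2-fold. mt-Co1, the catalytic subunit of cytochrome c oxidase, had 3230.4, 3297 and 2825 CPM in naive and 8503, 6907 and 6415 CPM in memory libraries (log2 fold change 1.22 ± 0.12, edgeR adjusted p = 2.2e-06). mt-Nd1, a complex I subunit, had 829, 909 and 716 CPM in naive and 2300.3, 1714 and 1513 CPM in memory libraries. Memory replicate 1 was the highest in both genes and in the share of mitochondrial reads. mt-Co2, mt-Co3 and mt-Atp6 rose by 1.46, 1.22 and 1.26 but had few reads, and the nuclear genome holds near-identical copies of parts of the mitochondrial genome, so their values are uncertain.

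Of 75 nuclear-encoded subunits of the respiratory chain and ATP synthase tested (of 76 listed), 34 rose and 1 fell, none of them 2-fold, with a median of 0.31. The first count was 16 without naive replicate 3 and 20 with scaling to library totals, and the second was 0 without naive replicate 1. Cox8a, a cytochrome c oxidase subunit, had 67.8, 61.8 and 51.7 CPM in naive and 119, 100.2 and 86.5 CPM in memory libraries. By contrast, of 28 genes of mitochondrial transcription, RNA handling and translation, 2 rose and 9 fell; only 1 rose without any one of naive replicates 1 and 2 and memory replicates 2 and 3. Lrpprc, which stabilises mitochondrial mRNAs, had 134, 125 and 128 CPM in naive and 90.2, 91.0 and 101 CPM in memory libraries. Twnk, the mitochondrial DNA helicase, fell by 0.57 on the log2 scale. Tfam, which packs mitochondrial DNA and starts its transcription, had 72.7, 77.0 and 62.8 CPM in naive and 77.2, 74.2 and 69.8 CPM in memory libraries and was not called. Of 77 mitochondrial ribosome genes, 6 rose and 8 fell, shares below the background. The first count was 2 and 3 without memory replicates 1 and 2, and the second was 3 to 5 without any one of the libraries other than memory replicate 1.

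Mitochondrial chaperones, proteases and import genes, the functional neighbours of GRP75, changed little. Of 37 tested (of 39 listed), 6 rose (16.2%) and 4 fell (10.8%), none 2-fold, against 21.4% and 17.6% of all genes. Without naive replicate 3 only 2 rose, and without naive replicate 1 or 2 only 3. Hspd1, the matrix chaperonin Hsp60, went from 207, 216 and 185 to 286, 263 and 263 CPM (log2 fold change 0.42 ± 0.09, edgeR adjusted p = 0.0017). Grpel2, a nucleotide exchange factor of mitochondrial Hsp70, fell from 38.5, 39.1 and 34.9 to 27.5, 23.8 and 22.3 CPM. Lonp1, the matrix protease, had 83.2, 76.0 and 87.0 CPM in naive and 92.2, 80.4 and 92.2 CPM in memory libraries and was not called.

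Chaperones of the cytosol and the endoplasmic reticulum rose. Of 25 cytosolic heat shock genes tested (of 26 listed), 16 rose, and 10 did without naive replicate 2. Hspa1b, a stress-inducible Hsp70, had 3.05, 3.52 and 4.39 CPM in naive and 25.3, 26.5 and 36.7 CPM in memory libraries, and its near-identical copy Hspa1a rose by 4.05 on the log2 scale. Hsp90aa1, the inducible Hsp90, went from 326 ± 11.7 to 625 ± 57.5 CPM (SD, n = 3). Of 25 genes induced by misfolded proteins in the endoplasmic reticulum, 16 rose. Hspa5, the main chaperone BiP there, had 517, 520.1 and 488 CPM in naive and 1208, 1109 and 1102 CPM in memory libraries, about 2.24 times as high.

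Cell cycle genes rose modestly. Of 35 mitosis and spindle genes, 26 rose and none fell in the edgeR test, but only 7 reached 2-fold. Mki67, which encodes the proliferation antigen Ki-67, had 95.5, 97.0 and 110.2 CPM in naive and 160.4, 197 and 187 CPM in memory libraries (log2 fold change 0.85 ± 0.10, edgeR adjusted p = 8.7e-06). Ccnb1, the mitotic cyclin, had 3.05, 3.01 and 3.94 CPM in naive and 11.5, 11.0 and 10.3 CPM in memory libraries. Of 37 DNA replication genes, 18 rose and 1 fell, or 0 without naive replicate 2. Mcm2, a helicase subunit, was not called, at 86.9 ± 8.58 and 86.3 ± 2.12 CPM, while Mcm6, another, rose from 74.6 ± 2.76 to 190.1 ± 11.7 CPM (SD, n = 3). Ccnd2, a G1 cyclin, fell by 0.79 on the log2 scale, and Cdkn1a, which encodes the inhibitor p21, rose by 0.95. Myc rose by 0.57, while of 29 MYC and ribosome biogenesis genes 3 rose and 4 fell, both shares below the background. Without naive replicate 2 only 1 fell, and without naive replicate 1 or 3 or memory replicate 2 only 2 did.

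Glycolysis genes rose in 14 of 22 tested (of 23 listed), and none fell in the edgeR test. Slc2a1, the glucose transporter GLUT1, had 23.6, 25.5 and 28.1 CPM in naive and 63.1, 54.9 and 69.6 CPM in memory libraries (log2 fold change 1.28 ± 0.11, edgeR adjusted p = 5.1e-07). Hk2, the inducible hexokinase, went from 5.55 ± 0.621 to 15.7 ± 2.22 CPM, and Ldha, which makes lactate, from 314 ± 6.94 to 423 ± 34.9 CPM (SD, n = 3). In fat metabolism, Cpt1a, which carries fatty acids into mitochondria for oxidation, fell from 161, 165 and 173 to 89.0, 82.6 and 79.3 CPM. The log2 fold change was -0.99 ± 0.08 (SE, edgeR adjusted p = 3.4e-07). Of 26 genes of fatty acid oxidation and lipid handling, 9 rose (34.6%) and 4 fell (15.4%). The shares of all genes were 21.4% and 17.6%. Insig1, a target of the sterol factor SREBP2, rose by 1.12 on the log2 scale, and Abca1, the cholesterol exporter, fell by 1.09. Of 25 genes of the tricarboxylic acid cycle, 7 rose (28%, against 21.4% of all genes), none 2-fold, and 4 did without naive replicate 1.

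Several lists bear on functions of GRP75 or on T cell survival. GRP75 also tethers IP3 receptors of the endoplasmic reticulum to VDAC channels of mitochondria, the route of calcium between both organelles. Of 20 genes of that route, 2 rose (10%) and 2 fell (10%), shares below the 21.4% and 17.6% of all genes. The first count was 1 without naive replicate 3 or memory replicate 1. The second was 1 without naive replicate 1 or 2 or memory replicate 3. With library totals, 1 rose and 4 fell. Vdac1, the outer membrane channel, had 90.2, 92.4 and 94.5 CPM in naive and 106, 95.9 and 103 CPM in memory libraries and was not called. Itpr1, an IP3 receptor, had 113 ± 2.03 and 99.5 ± 11.7 CPM (SD, n = 3) and was not called either. GRP75 also acts as chaperone in iron-sulfur assembly. Of 26 genes of iron handling and iron-sulfur assembly, 10 rose (38.5%) and 2 fell (7.69%). The falls came to 0 without naive replicate 1 or 2, to 1 without naive replicate 3 or memory replicate 2 or 3, and to 1 in the DESeq2 and limma-voom tests. The scaffold gene Iscu rose by 0.36 and the ferritin gene Fth1 by 0.91 on the log2 scale. Slc40a1 and Hmox1, which rose by 4.53 and 2.69, are also strong in macrophages. Of 20 genes of mitochondrial dynamics and mitophagy tested (of 24 listed), 7 rose (35%) and 2 fell (10%). Only 1 fell without naive replicate 2 or memory replicate 3. The autophagy gene Gabarapl1 rose by 1.37, and Opa1, the inner membrane fusion gene, fell by 0.27.

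The shares below stand beside 21.4% of all genes that rose and 17.6% that fell. Of 15 BCL2 family genes tested (of 18 listed), 9 rose (60%) and 2 fell (13.3%). Only 1 fell without naive replicate 1 or 2 or memory replicate 3. Bcl2, the survival factor downstream of IL-7, fell from 599.9, 597 and 536 to 490.2, 485 and 467 CPM, and Pmaip1, the death-promoting gene NOXA, rose from 23.4, 23.9 and 22.0 to 81.2, 90.9 and 93.0 CPM. Neither pair of ranges overlapped. Bcl2l1, which encodes the survival protein BCL-XL, rose by 0.79 on the log2 scale, and Bmf, which promotes death, fell by 0.79. Of 25 antioxidant genes tested (of 28 listed), 11 rose (44%) and 2 fell (8%). Gpx1, a glutathione peroxidase, rose by 1.39. The falls came to 0 without naive replicate 3 and to 1 without naive replicate 1 or memory replicate 2 or 3. Of 8 GIMAP genes, small GTPases of lymphocyte survival, 4 rose (50%), with Gimap7 at 1.06, and 1 fell (12.5%). That fall lost its call without any one of the libraries other than memory replicate 1. Of 25 KLF and quiescence genes tested (of 27 listed), 11 rose (44%) and 8 fell (32%). Klf6 stood at 1.25 and Pik3ip1, a brake on PI3 kinase, at -0.66. Socs2 and Pim1, induced by cytokines through STAT5, rose by 2.44 and 2.37. In their feedback list of 16 tested genes, 7 rose (43.8%) and 2 fell (12.5%), or 1 without naive replicate 1. Of 77 cytosolic ribosomal protein genes, 14 rose (18.2%) and 1 fell (1.3%), against 21.4% and 17.6% of all genes. The number that rose depended on the setting. It was 7 without naive replicate 1 or 3, 9 without naive replicate 2 and 8 without memory replicate 1. With library totals it was 5, in a fit of all 18 libraries 25 and with a replicate block 32. Many of these genes have near-identical pseudogene copies.

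Among single genes, Wls had the largest fall of any gene that met the rule for naming. Wls encodes the carrier that brings Wnt proteins to the cell surface, and lies at chr3:159545309-159644300 (GRCm39). It had 632, 652 and 593 CPM in naive and 51.0, 54.3 and 52.8 CPM in memory libraries. The naive mean was 11.9 times the memory mean (log2 fold change -3.57 ± 0.09, edgeR adjusted p = 2.1e-12). Slfn5, a Schlafen family gene, went from 175 ± 9.37 to 40.5 ± 2.31 CPM, and Rnf213, a large ubiquitin ligase, from 1799 ± 129.9 to 583 ± 72.5 CPM (SD, n = 3). Neb, Zfp605, Kcna2, Ramp1, Spsb1 and St8sia1 were also among the largest falls, with log2 fold changes between -2.40 (Neb) and -1.57 (St8sia1). The largest rises were mostly genes of other blood cells. Ngp, a granule protein of neutrophils, had 0.111, 0.126 and 0 CPM in naive and 83.5, 67.7 and 57.4 CPM in memory libraries, and Ltf, another, had 0.167, 0 and 0.129 and 52.4, 40.4 and 50.2 CPM. Lyz2, the lysozyme of myeloid cells, had 0.833, 0.628 and 0.581 CPM in naive and 182, 144 and 133 CPM in memory libraries. H2-Ab1, an MHC class II chain of B and dendritic cells, had 4.61, 3.83 and 4.78 CPM in naive and 369.8, 301 and 326 CPM in memory libraries. Siglech and Pld4 of plasmacytoid dendritic cells, Mpeg1, Chil3, Plbd1 and Dnase1l3 rose with them, by 6.37 (Mpeg1) to 7.71 (Siglech).

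**Figure D4:**
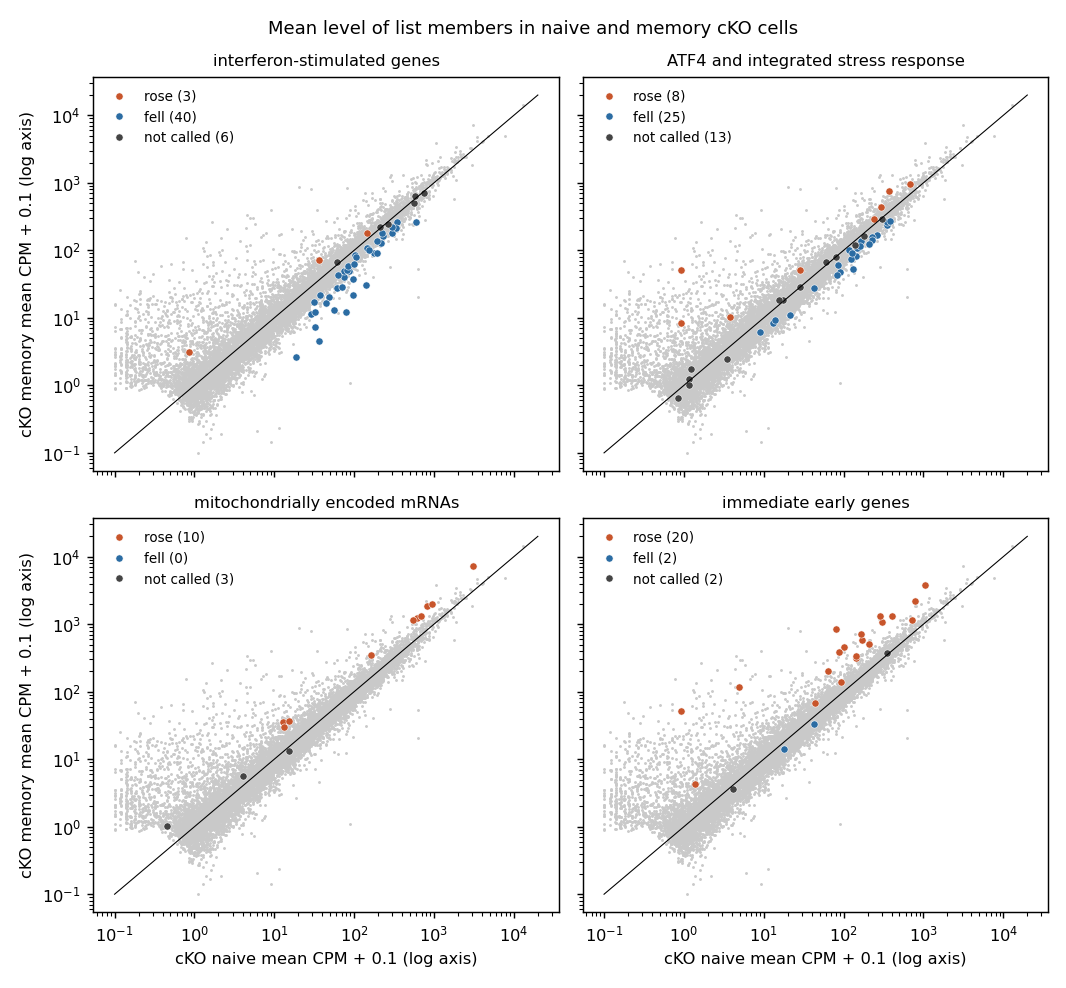
Mean CPM plus 0.1 of naive (x, log axis) against memory libraries (y, log axis) for all 14083 genes tested (grey) and for 4 lists (coloured by call), with the line of equal levels. Interferon-stimulated genes (40 fell) and genes of the ATF4 response (25 fell) lie below the line in the main. Mitochondrially encoded mRNAs (10 rose) and immediate early genes (20 rose) lie above it.

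Whether the step from naive to memory differed from that in WT cells was tested as an interaction over 12 libraries. Of 14723 genes tested, 2108 were called (14.3%), 1073 with a more positive difference in the libraries labelled cKO (7.29%) and 1035 with a more negative one (7.03%). This near-even split depended on the setting. It was 732 more positive and 1380 more negative with library totals, 774 and 1180 without a filter on low counts, 537 and 909 without memory WT replicate 1, and 522 and 878 without memory WT replicate 3, where 1400 genes were called in all. Ddx3y had 0 reads in the naive WT libraries, so sex makeup differed between the naive groups and cannot be told apart from genotype in this contrast. Mitosis genes rose less than in WT: 31 of 35 had a more negative difference, with a median of 0.77 in the libraries labelled cKO and 2.66 in WT. For Mki67, naive levels were 97.3 ± 7.54 CPM labelled cKO and 13.7 ± 1.45 CPM WT, and memory levels 178 ± 19.6 and 123 ± 4.36 CPM (SD, n = 3). The naive WT level was the lowest of the 4 groups. Of 46 genes of the ATF4 response, 28 had a more negative difference and 3 a more positive one. The medians were -0.40 labelled cKO and 0.25 in WT. Trib3 was at 80.8 ± 7.69 CPM in naive and 42.8 ± 4.10 CPM in memory libraries labelled cKO, and at 0.807 ± 0.88 and 1.93 ± 0.497 CPM in WT (difference -2.14 ± 0.46 (SE), edgeR adjusted p = 0.0041). For interferon-stimulated genes, 20 of 49 had a more negative difference and 1 a more positive one. The list median was -0.66 labelled cKO and -0.33 in WT, so the list was lower in memory cells in WT as well. Ifit1 fell in both, by log2 fold changes of -2.68 labelled cKO and -2.03 in WT. Rsad2 was at 53.5 ± 4.88 CPM in naive and 12.6 ± 0.0303 CPM in memory libraries labelled cKO, and at 11.6 ± 1.05 and 9.02 ± 0.339 CPM in WT. Its memory levels were close and its naive levels were not.

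Mitochondrially encoded mRNAs had a more positive difference in 10 of 13 genes, with medians of 1.11 labelled cKO and 0.19 in WT. mt-Co1 was at 3008 ± 253 CPM in naive and 7139 ± 1039 CPM in memory libraries labelled cKO, and at 10677 ± 916 and 12211 ± 571 CPM in WT (difference 1.05 ± 0.14 (SE), edgeR adjusted p = 7.1e-05). Memory cells labelled cKO thus lay between naive cells labelled cKO and both WT groups. Among T cell genes, Klrk1 rose further in the libraries labelled cKO, from 7.45 ± 0.833 to 179.7 ± 5.45 CPM against 11.6 ± 1.05 to 52.6 ± 2.96 CPM in WT. The 17 NK-type receptors did not follow as a list, with medians of 4.59 labelled cKO and 5.68 in WT. Of these, 4 had a more positive difference and 3 a more negative one. Prf1 stood at 27.0 ± 1.49 CPM in naive and 53.5 ± 5.07 CPM in memory libraries labelled cKO, against 70.0 ± 3.99 and 69.8 ± 2.94 CPM in WT (difference 0.99 ± 0.12 (SE), edgeR adjusted p = 1.8e-05). Ccr7 and Irf4 rose less, by differences of -1.08 and -1.90 on the log2 scale. For Hspa9 the difference was -0.17 ± 0.10 (SE), with an edgeR adjusted p of 0.25.

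**Figure D5:**
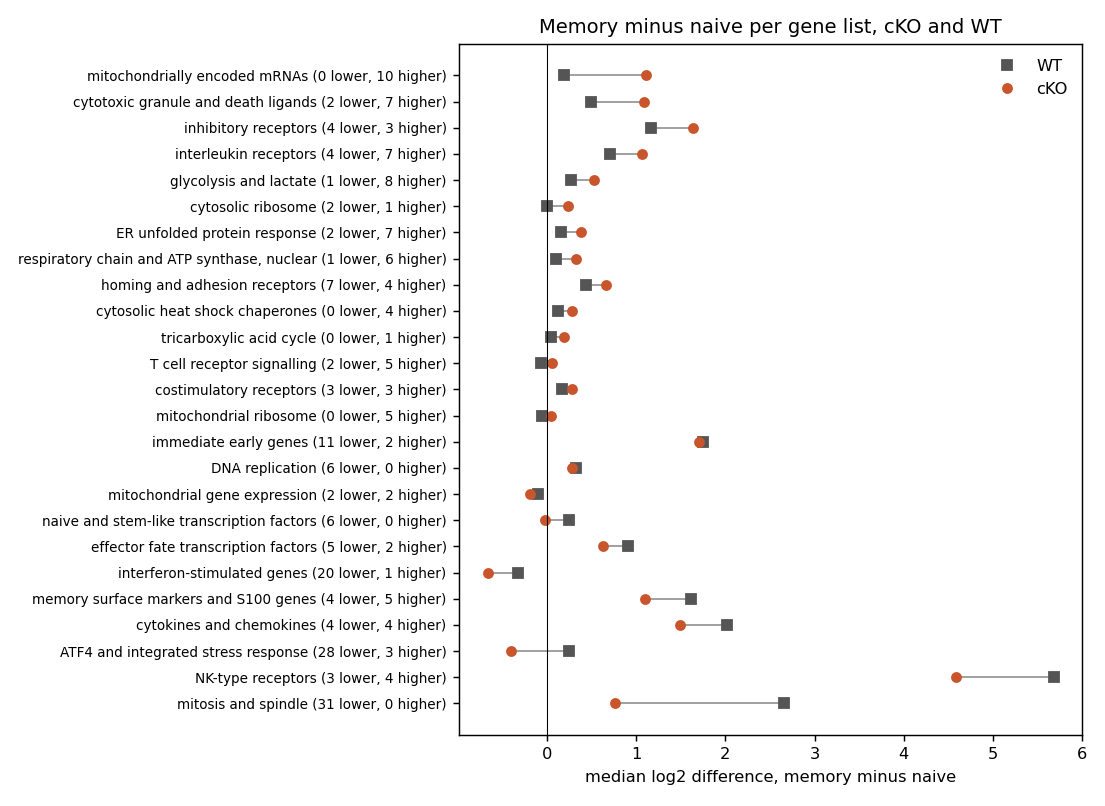
Median log2 difference, memory minus naive, over the tested genes of each list in the libraries labelled cKO (circles) and in WT libraries (squares), from the fit over 12 libraries, with the number of genes called lower or higher in the interaction in parentheses. Mitosis genes lie at 0.77 labelled cKO and 2.66 in WT, and mitochondrially encoded mRNAs at 1.11 and 0.19.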

How the data were processed

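Polyadenylated RNA was sequenced, per the labels' protocols. Tools named in the submitters' processing notes are HISAT2 2.2.1 and fastp, featureCounts 2.0.6, and DESeq2 1.42.0, with the build GRCm39; the annotation and strand setting are not given in the sources used here. The authors deposited, for each subset, a signal value per gene and library that is a read count divided by a size factor. Dividing each column by its smallest positive value gave whole reads for 100% of the values within 1e-05 reads. The naive and memory tables were joined by gene identifier, and 667 genes on X or Y were left out, which kept 21493 genes; 2692 and 1529 others were listed for memory or naive cells only. Tests used edgeR 4.0.16 (R 4.3.3; TMM, filterByExpr, quasi-likelihood) and were tested on simulated data. Standard errors were derived from the F statistic. Members and lists were chosen with earlier results of these data known. Genes were named as the 15 largest changes per direction (mean log2 CPM of at least 4, no overlap, protein coding), 10 per direction for the interaction, up to 5 per list (at least 2) and members whose role orders the account. Alternatives were other scalings, tests, filters and left-out libraries. Some members are not reported here.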

Additional observations from a re-analysis of the deposited data

Results flagged for a closer look

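The change from naive to memory differed between the libraries labelled cKO and WT in 2108 genes by the edgeR interaction test. Among the named genes with a more positive log2 difference labelled cKO were genes of myeloid cells: Ngp at 4.41, Lyz2 at 3.42, Plbd1 at 2.85 and Mpeg1 at 1.95. Ngp lost its call without any one of 6 libraries. The lysosomal genes Naaa and Grn stood at 3.08 and 2.31, the cystatin gene Cst3 at 2.15 and the heat shock gene Hspa1b at 2.80. The receptor gene Klrk1 stood at 2.40 and the chemokine receptor gene Cxcr6 at 2.07. For Hspa1b, naive levels were 3.52 ± 0.647 CPM labelled cKO and 19.0 ± 4.60 CPM WT. Its memory levels were 29.0 ± 6.14 and 22.5 ± 0.904 CPM (SD, n = 3). Cxcr6 rose labelled cKO, from 26.9 ± 2.00 to 49.9 ± 9.00 CPM, and fell in WT, from 68.0 ± 1.84 to 30.0 ± 2.37 CPM (SD, n = 3). On the scale of 12 libraries, summed neutrophil markers averaged 232 CPM in memory libraries labelled cKO and 14.1 CPM in memory WT libraries. Macrophage and dendritic cell markers averaged 361 and 68.0 CPM, gamma-delta T cell markers 138 and 17.4 CPM and B cell markers 1625 and 868 CPM. Those of CD8 T cells, CD4 T cells and stroma and endothelium were lower labelled cKO. The part of other cell types in these differences was not tested.

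More negative differences were seen for the scavenger receptor genes Scart1 (-4.68) and Scart2 (-3.45), the early genes Fosb (-3.48), Klf4 (-2.62) and Dusp4 (-2.68), Vegfa (-3.46), the receptor genes Klra6 (-3.04) and Klrc1 (-2.65), the cholesterol esterification gene Soat2 (-2.94) and the replication gene Pclaf (-2.88). Soat2 was level labelled cKO, at 59.3 ± 1.34 CPM in naive and 58.6 ± 3.46 CPM in memory libraries, and rose in WT from 0.834 ± 0.283 to 6.36 ± 0.848 CPM. For each of these 10 genes the naive mean labelled cKO was above the naive WT mean.

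Outside the autosomal comparison, the Y-linked gene Ddx3y had 9290 reads over the 3 naive libraries labelled cKO and 0 in the naive WT libraries.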

How the results depend on the processing

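No fold change of a reported gene that passed the test changed sign under the alternatives run, but the balance of calls did: with library totals, 2448 genes were higher and 3457 lower, and in the interaction 732 were more positive and 1380 more negative. Testing against a 1.5-fold change (glmTreat) left 1792 genes called, 1406 higher and 386 lower, with 296 lower at least 2-fold. By construction it drops small changes. It left 13 mitosis genes, 6 glycolysis genes and 0 nuclear respiratory chain genes that rose. It also left 6 genes of the ATF4 response and 20 interferon-stimulated genes that fell. With limma on log2(CPM + 1), 188 genes were lower at least 2-fold. Scaling to library totals left 20 nuclear respiratory chain genes that rose, and gave ratios of 1.25 for summed CD4 T cell and 0.877 for summed stroma and endothelium markers. The cause of these shifts was not tested. Leaving out 1 library at a time gave 4350 to 5327 called genes, 16 to 38 nuclear respiratory chain genes that rose, and in the interaction 1400 to 2335 called genes, 522 to 1245 of them more positive. A replicate block gave 5953 called genes, 3241 higher and 2712 lower, and 2302 in the interaction. Libraries of the same replicate number had deviations correlated at 0.00916, 0.0298 and 0.116, and those of different numbers at -0.0775 to 0.0541. These values do not settle whether the numbers mark pairs, and the reported tests did not take them as pairs. Among single genes, 155 tests under an alternative missed the threshold that the reported test passed, 79 of them against the 1.5-fold change. With 3 libraries per group, exact tests of single quantities cannot go below p = 0.1.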
